A study of Mus musculus with 8 samples.

Results

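The 51 genes described here encode the SR proteins, the hnRNP proteins and a set of other regulators of pre-mRNA splicing. They were taken by symbol from the 21899 protein-coding genes of the deposited count table: 13 SR genes (Srsf1 to Srsf7, Srsf9 to Srsf12, Tra2a and Tra2b), 20 genes whose symbol starts with Hnrnp, and 18 genes of the Ptbp, Rbfox, Mbnl, Celf and Esrp families with Qk. The cells were mesenchymal stem cells of mouse femoral bone marrow, which are adherent stromal progenitors. They received either ellagic acid (EA), a polyphenol found in fruits and nuts, at 10 µM over 48 h, or DMSO as the control, and poly(A) RNA was sequenced in 4 libraries per group. Strain, age and sex of the mice are not given, and no label states that the libraries of a group are separate cultures or animals, so the p-values measure the spread among these libraries, which may be technical.

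SR proteins carry RNA recognition motifs and a tail rich in arginine and serine, and in the textbook view they bind exonic enhancers and promote exon inclusion. The hnRNP proteins coat nascent transcripts and often act the other way on the same exons, so the balance of both classes sets many splicing choices. Ptbp, Rbfox, Mbnl, Celf, Esrp and Qk proteins add choices that differ between tissues. Many SR and hnRNP genes limit their own output through exons that send the transcript to nonsense-mediated decay. The values here are reads per gene. They give transcript levels, not exon use, and in bulk RNA fewer cells of a type and less RNA per cell cannot be told apart.

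Of the 51 genes, 44 had enough reads to be tested. The other 7 were near or at 0: Srsf12 had 3 reads in the 4 control libraries together and 8 in EA, Mbnl3 had 7 and 17, Celf6 3 and 3, Rbfox1 0 and 3, and Rbfox3 0 and 1. Esrp1 and Esrp2, the epithelial regulators, had 11 and 3 reads in control and 6 and 7 in EA. Library totals ran from 14112519 to 17390200 reads. All 13 listed mesenchymal markers had reads, with summed levels of 16942 to 19418 CPM (reads scaled to a common library size) in control and 18942 to 19742 in EA. Those sums use library totals. With TMM 7 of the 12 tested ones were called higher and 2 lower, beside 33.1% and 34.2% of all tested genes. Col1a1 (394937 reads in control and 412433 in EA) and Col1a2 (554422 and 587438) made up most of the summed levels. Pdgfra went from 9665 to 34986 reads over the libraries of a group and Pdgfrb from 13398 to 28872. Vcam1 went from 21665 to 11437 and Ly6a from 2336 to 652. Thy1 had only 12 reads in control and 7 in EA, Lepr 58 and 69, Eng 153 and 194 and Nt5e 308 and 346. Epithelial markers summed to 0.645 to 1.64 CPM in control and 0.312 to 0.779 in EA, and macrophage and leukocyte markers to 68.0 to 85.5 and 52.5 to 56.8 CPM, with Cd14 at 2391 and 533 reads, Lyz2 at 2411 and 2830 and Ptprc at 16 and 17. The part of these moves in the results was not tested. Control library 4 stood somewhat apart for this gene set. It held the highest control level of 31 of the 44 tested genes, against 33.9% of all tested genes, and the counts without it are given with the main ones. Control library 1 held the lowest control level of 26 of the 44, and without it 33 were higher and 5 lower with TMM. In EA, library 2 was the highest for 19 of the 44, against 23.9% of all tested genes, and library 4 the lowest for 21. For the lowest values the share of all tested genes was not counted.

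Sequences around the start sites are shown for the SR gene with the largest rise and for the hnRNP genes with the largest rise and the largest fall among those with a RefSeq promoter window. Each run is the 200 bases before the start, 5′ to 3′, from RefSeq on build GRCm38.p6, an older build than the GRCm39 of the deposited table. Capitals mark matches on either strand to 5 motifs: the E-box CACGTG, the CRE TGACGTCA, the CCAAT box CCAAT, the ETS site CCGGAAG and the GC box GGGCGG, of which no letters overlap in these runs. Srsf3 lies at chr17:29032460-29032659 (plus strand), Hnrnpdl at chr5:100039223-100039422 (minus strand) and Hnrnph3 at chr10:63023850-63024049 (minus strand).
Srsf3: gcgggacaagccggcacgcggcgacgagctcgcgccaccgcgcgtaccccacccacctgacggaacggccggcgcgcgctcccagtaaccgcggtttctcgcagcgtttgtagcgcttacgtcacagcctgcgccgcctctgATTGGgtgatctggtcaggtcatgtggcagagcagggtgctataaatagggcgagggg
Hnrnpdl: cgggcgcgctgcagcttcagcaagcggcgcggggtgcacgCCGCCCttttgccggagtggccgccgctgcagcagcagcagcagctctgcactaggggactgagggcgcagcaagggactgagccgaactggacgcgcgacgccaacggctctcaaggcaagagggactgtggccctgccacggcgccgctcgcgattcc
Hnrnph3: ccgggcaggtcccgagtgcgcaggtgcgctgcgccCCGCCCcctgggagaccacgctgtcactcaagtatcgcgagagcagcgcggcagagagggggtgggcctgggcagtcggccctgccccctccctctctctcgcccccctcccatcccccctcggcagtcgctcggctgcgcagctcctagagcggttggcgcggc

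The Srsf3 run holds a single match, a CCAAT box in reverse orientation, and the Hnrnpdl and Hnrnph3 runs a GC box each, also in reverse orientation. The G and C share was 67%, 71% and 74.5%. RefSeq windows of 300 bases (250 before and 50 after a start) were found for 39 of the 44 tested genes, 66 windows in all. A GC box was in 49 of them (74.2%), beside 62.7% of the windows of all tested genes and 35.7% of all windows in the table. A CCAAT box was in 31 (47%), beside 38% and 37.4%, and an ETS site in 10 (15.2%), beside 17.6% and 8.86%. The E-box was in 7 (10.6%), beside 9.83% and 7.15%, with none in the 15 SR windows and 5 in the 27 hnRNP windows. The CRE was in 4 (6.06%), beside 3% and 1.79%, with 1 in the SR windows and 0 in the hnRNP windows. In the SR and hnRNP windows the ETS site was in 6 and 4, the CCAAT box in 5 and 17 and the GC box in 14 and 21. The median G and C content was 63.5% in the members' windows and 60.7% in those of all tested genes. These matches describe the letters of the windows only.

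The comparison asked how the transcript levels of these genes differed between EA and control. With TMM scaling all 12 tested SR genes were higher in EA, 5 of them by 1.5-fold or more, and the hnRNP genes divided. Of 20 hnRNP genes 13 were higher and 4 lower, and of the 12 other regulators 8 were higher and 2 lower. A gene was called where its Benjamini-Hochberg adjusted p over 11777 genes was below 0.05 in the quasi-likelihood test of edgeR. This made 33 of 44 higher and 6 lower. Of all tested genes 67.2% were called, 33.1% higher and 34.2% lower. At 1.5-fold or more, 10 of the 44 were higher and 1 lower, beside 16.2% and 17.7% of all tested genes, so the calls were many and the changes mostly small. Without control library 4 the counts were 34 higher and 6 lower.

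How libraries were scaled decided the direction for many of these genes. The values above use TMM factors, which take most genes as unchanged or evenly changed, and the TMM factors were 1.13 ± 0.00641 in control and 0.882 ± 0.00288 in EA (SD, n = 4). With library totals alone, 12 of the 44 were higher and 15 lower, beside 16.5% and 61.1% of all tested genes. At 1.5-fold or more 2 were then higher, 1 of them an SR gene, and 3 lower, beside 9.4% and 35.2%. By the call alone the SR genes were 6 higher and none lower, the hnRNP genes 3 higher and 9 lower, and the other regulators 3 higher and 6 lower. Upper-quartile factors gave 27 higher and 9 lower, beside 24% and 45.3%, and limma on log2(FPKM + 1) gave 13 and 14, beside 16.3% and 60.8%. FPKM is the count scaled to gene length and library total. The calls of 18 genes had the same direction under TMM, RLE, upper-quartile factors, library totals and FPKM: 12 higher and 6 lower. How many of all tested genes were called alike under every scaling was not counted. By the shares above it is at most 16.3% higher and at most 34.2% lower. These scalings are not independent: RLE and TMM gave nearly the same values (member medians of 0.397 and 0.389), and FPKM uses the library total. From TMM, the member median moved by −0.16 with upper-quartile factors and by −0.36 with library totals or FPKM. Genes lower with TMM were thus nearly bound to stay lower. Likewise, genes higher with library totals were nearly bound to be higher with TMM.

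Each class lay above the median of all tested genes under each of these scalings. The median log2 fold change was 0.55 for SR genes, 0.33 for hnRNP genes and 0.30 for the other regulators with TMM, against −0.02 for all tested genes. With library totals it was 0.19, −0.04 and −0.06, against −0.38. The SR median was 0.57 above that of all genes on the log2 scale under both, the hnRNP median 0.34 above and that of the other regulators 0.32 above; these factors move all genes nearly alike, so this distance is kept by construction. On the log2(FPKM + 1) scale the distances were smaller, at 0.45, 0.24 and 0.23, but with log2(FPKM + 0.1) they were 0.55, 0.33 and 0.32. The summed reads of both classes give a ratio within each library that no scaling touches. For every 100 hnRNP reads there were 29.6, 31.4, 30.6 and 31.1 SR reads in control libraries 1 to 4, and 41.8, 40.6, 41.4 and 40.5 in EA libraries 1 to 4. The groups did not overlap, and the mean was 30.7 ± 0.814 in control and 41.1 ± 0.621 in EA (SD, n = 4). Per unit of length the ratio was 32.2 ± 0.858 and 43.5 ± 0.551 SR FPKM per 100 hnRNP FPKM. Such sums are weighted to abundant genes. Over the libraries of a group Srsf5 went from 15709 reads in control to 23529 in EA, and Srsf3 from 11269 to 18147. Hnrnpa1, whose reads are uncertain as described below, went from 48904 to 37644, and Hnrnpa2b1 from 52746 to 53325. As shares of all reads, SR genes went from 0.178 ± 0.0104% to 0.216 ± 0.00400% and hnRNP genes from 0.582 ± 0.0214% to 0.525 ± 0.00889%.

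**Figure D1:**
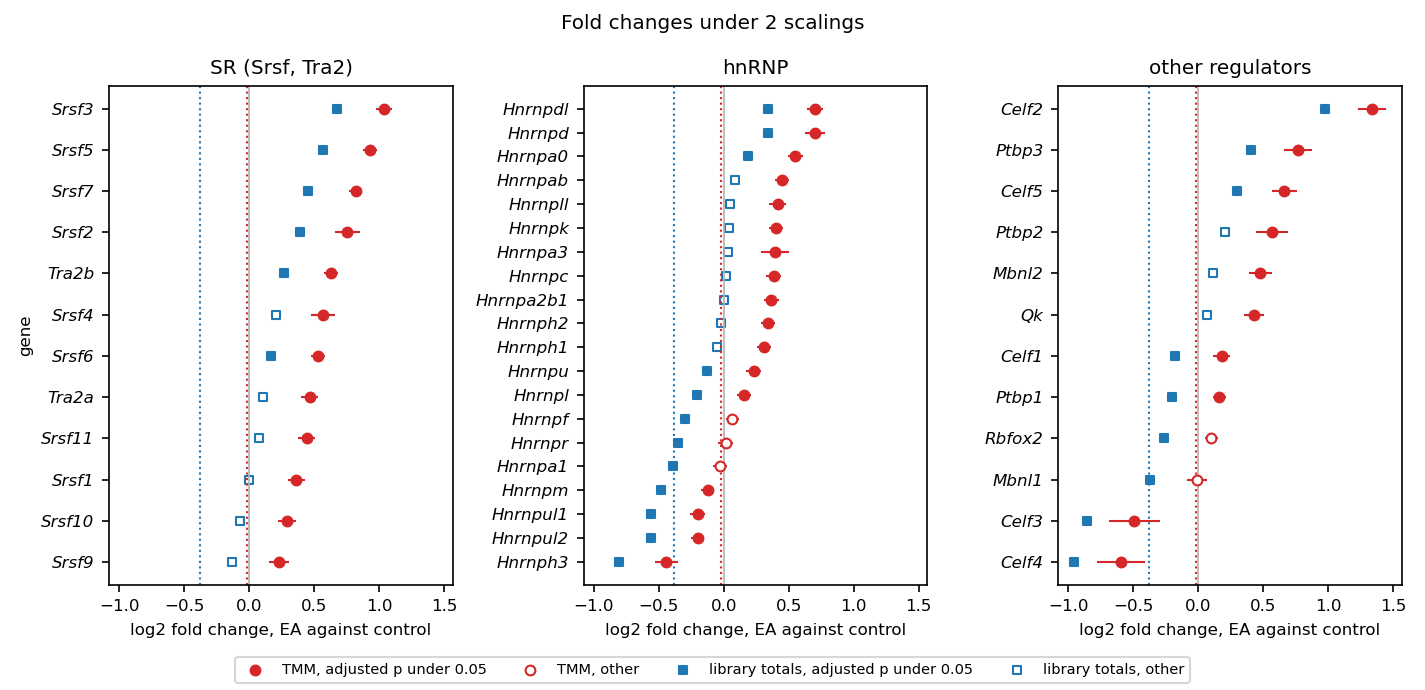
Log2 fold change of EA against control for each of the 44 tested genes, by class. Red circles are edgeR values with TMM scaling, with bars of 1 SE, and blue squares those with library totals; filled symbols passed an adjusted p of 0.05, and dotted lines mark the median of all tested genes under each scaling. All 12 SR genes are filled and to the right of 0 with TMM, while 6 are filled with library totals, where Srsf1, Srsf9 and Srsf10 lie at or below 0.

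Among the SR genes, Srsf3, Srsf5, Srsf7 and Srsf2 led. Srsf3 (chromosome 17, 29251602 to 29262347, GRCm39) encodes a small SR protein that also adapts mRNA for nuclear export. It stood at 151, 155, 157 and 175 CPM (TMM scaled) in control libraries 1 to 4 and at 345, 334, 335 and 297 in EA libraries 1 to 4. The lowest EA library was far above the highest control library. Srsf3 rose 2.05-fold, a log2 fold change of 1.04 ± 0.06 (SE; adjusted p = 6.5e-12, edgeR), and by 0.68 with library totals (adjusted p = 5.51e-09, edgeR). Its deposited FPKM went from 22.9 ± 1.48 to 36.6 ± 2.45 (SD, n = 4).

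Srsf5 (chromosome 12, 80992278 to 80997281) had the highest FPKM of the class, at 63.4 ± 3.66 in control and 93.8 ± 1.92 in EA. Its levels were 209, 239, 219 and 225 CPM in control and 422, 434, 412 and 430 in EA. All EA libraries were above all control libraries, and Srsf5 rose 1.90-fold (log2 0.93 ± 0.05, adjusted p = 4.55e-12, edgeR). Srsf7 (chromosome 17, 80507509 to 80514736), a zinc-knuckle SR protein closely related to Srsf3, was at 122.9, 125, 128 and 130 CPM in control and 218, 225, 224 and 224 in EA. The spread within each group was small beside the gap between them. It rose 1.76-fold, by 0.82 ± 0.05 on the log2 scale (adjusted p = 1.79e-11, edgeR).

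Srsf2 (chromosome 11, 116740727 to 116743920), the SC35 protein of nuclear speckles, was at 52.1, 72.7, 59.4 and 76.1 CPM in control and at 108, 104, 116 and 110 in EA. Control libraries 1 and 3 were the low ones, and no control library reached the EA range. Srsf2 rose 1.68-fold (log2 0.75 ± 0.10, adjusted p = 3.86e-06, edgeR). Its locus overlaps Mettl23 and Mfsd11 on the opposite strand, by 3194 and 655 bases, and the strand setting of the counting is not known. Those genes had 525 and 2380 reads in control and 428 and 1754 in EA. The part of shared reads in the Srsf2 values was not tested.

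Tra2b (chromosome 16, 22063299 to 22084755) encodes a serine-arginine protein that binds purine-rich exonic enhancers. It was tight in both groups, at 84.3, 86.0, 87.5 and 87.9 CPM in control and 134, 134, 134 and 133 in EA, and rose 1.55-fold (log2 0.63 ± 0.05, adjusted p = 1.99e-09, edgeR). Srsf6, which ranked next to Srsf5 by FPKM (56.3 ± 2.64 in control), was at 240, 244, 221 and 250 CPM in control and 348, 353, 335 and 346 in EA. The groups were apart by more than their own width, a rise of 1.45-fold (log2 0.53 ± 0.05, adjusted p = 2.48e-08, edgeR). These 6 genes, Srsf2, Srsf3, Srsf5, Srsf6, Srsf7 and Tra2b, were higher under every scaling tried.

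The other 6 SR genes rose with TMM but were not past the threshold with library totals, where Srsf1, Srsf9 and Srsf10 turned to log2 values of 0 or below. Srsf4 was 1.48-fold higher, from 15.1 ± 1.27 to 22.4 ± 0.915 CPM, and Tra2a, the paralog of Tra2b, 1.38-fold, from 162 ± 16.2 to 224 ± 9.04. Srsf11 was 1.36-fold higher and Srsf1, the founding SR protein, 1.29-fold, from 176 ± 16.8 to 227 ± 8.01 CPM. In FPKM, which is scaled to library totals and not by TMM, Srsf1 was level, at 34.95 ± 3.24 in control and 34.96 ± 1.31 in EA. Srsf10, known as a repressor after heat shock, was 1.22-fold higher and Srsf9 1.17-fold, the least of the class, from 42.5 ± 3.79 to 49.8 ± 3.15 CPM. Its highest control library, at 45.1 CPM, lay just under its lowest EA library, at 45.5. With TMM the 4 EA libraries lay above the 4 control libraries for 12 of 12 SR genes, beside 29.9% of all tested genes.

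**Figure D2:**
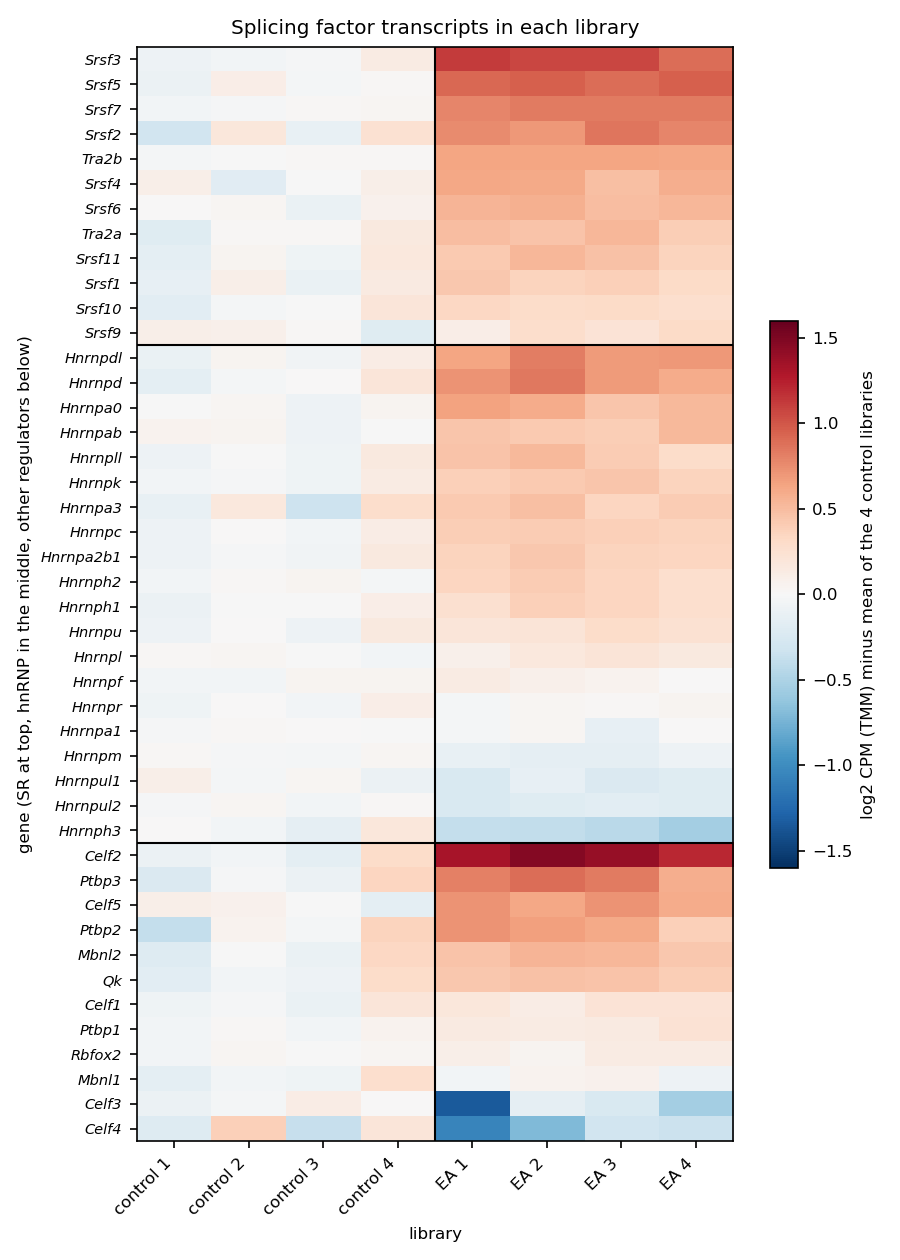
Level of the 44 tested genes in each library, as log2 CPM with TMM scaling minus the mean of the 4 control libraries (red higher, blue lower). Columns are the 4 control and 4 EA libraries, and rows are ordered by fold change within SR, hnRNP and other regulators. The SR block is red in all EA libraries with this scaling, the hnRNP block runs from red to blue, and control 4 is the reddest control column for Celf2, Ptbp3, Mbnl1, Mbnl2 and Qk.

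The hnRNP genes covered a wide range of levels. Hnrnpa1, which binds exonic silencers and is among the most abundant hnRNP proteins, had the highest FPKM at 249.3 ± 3.62 in control and 190 ± 8.65 in EA. On the TMM scale it was at 686, 703, 695 and 691 CPM in control and 681, 711, 636 and 694 in EA. The groups overlapped, with EA library 3 the lowest of all, and the log2 fold change was −0.03 ± 0.05 (adjusted p = 0.634, edgeR). With library totals Hnrnpa1 was lower by a log2 fold change of −0.39 (adjusted p = 6.66e-07, edgeR). Reads of this gene are uncertain, since near-identical processed copies exist in the mouse genome, and the same holds for Hnrnpa3.

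Hnrnpa2b1, its close relative that also sorts RNA for transport, was at 705, 738, 715 and 829 CPM in control and 950, 1003, 952 and 942 in EA. All EA libraries were above control, with a 1.29-fold rise (log2 0.37 ± 0.06, adjusted p = 9.43e-06, edgeR) that shrank to 0.00 with library totals (adjusted p = 0.966, edgeR). In FPKM, which is also scaled to library totals, it was level at 128 ± 9.28 and 129 ± 3.89. Hnrnpf, which binds runs of G, came next by FPKM at 106 ± 3.76 in control and 86.1 ± 3.16 in EA. Its CPM of 275, 277, 293 and 292 in control overlapped those of 310, 300, 294 and 285 in EA (log2 0.07 ± 0.05, adjusted p = 0.267, edgeR), and with library totals it was lower by a log2 fold change of −0.30.

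The largest hnRNP rises were those of Hnrnpd and Hnrnpdl, close paralogs that lie next to each other on chromosome 5. Hnrnpd, known as AUF1, binds AU-rich elements and controls mRNA decay. The loci, 100103794 to 100126797 for Hnrnpd and 100181436 to 100187523 for Hnrnpdl, are 54638 bases apart on the same strand with no other gene of the table between. Hnrnpdl was at 103, 114, 106 and 120 CPM in control and 172, 194, 178 and 178 in EA (1.63-fold, log2 0.70 ± 0.06, adjusted p = 3.37e-09, edgeR). Hnrnpd was at 43.6, 47.4, 48.7 and 55.6 CPM in control and 79.99, 87.2, 77.7 and 73.2 in EA (1.63-fold, log2 0.70 ± 0.08, adjusted p = 8.18e-08, edgeR). In both genes EA library 2 was the highest, and the rises held with library totals at 0.34 for each. Hnrnpa0, which binds AU-rich elements too, rose 1.46-fold from 104 ± 3.85 to 152 ± 9.01 CPM with TMM, and its call also held under every scaling, at 0.19 on the log2 scale with library totals.

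The remaining 9 hnRNP genes above control with TMM lost the call or turned lower with library totals. They were Hnrnpab (1.36-fold), Hnrnpll (1.33-fold), Hnrnpk (1.32-fold), Hnrnpa3 (1.31-fold), the uridine-tract binder Hnrnpc (1.30-fold), Hnrnph2 (1.27-fold), Hnrnph1 (1.24-fold), the nuclear scaffold protein Hnrnpu (1.17-fold) and the CA-repeat binder Hnrnpl (1.12-fold), beside Hnrnpa2b1. Hnrnpu and Hnrnpl were past the threshold as lower with library totals, at log2 fold changes of −0.13 and −0.21. Hnrnpab overlaps Phykpl on the other strand by 4390 bases, and Phykpl had 1146 reads in control and 984 in EA. The part of shared reads in the Hnrnpab values was not tested. Hnrnpll lies 137745 bases from Srsf7 on chromosome 17. Hnrnpr was level with TMM (94.1 ± 4.85 and 95.1 ± 2.38 CPM, adjusted p = 0.834, edgeR) and lower with library totals, at −0.35.

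Hnrnph3, Hnrnpul1, Hnrnpul2 and Hnrnpm fell under every scaling tried, which was nearly fixed once they were lower with TMM, as given above. Hnrnph3 (chromosome 10, 62850443 to 62859996), a member of the G-run binding H family, went from 25.8, 25.0, 23.3 and 29.2 CPM in control to 19.7, 19.7, 19.1 and 17.7 in EA. No EA library reached the control range, a 1.36-fold lower level (log2 −0.44 ± 0.09, adjusted p = 0.000254, edgeR). It overlaps Rufy2 on the other strand by 2547 bases, and Rufy2 went from 2402 to 1485 reads over the libraries of a group while Hnrnph3 went from 1826 to 1055. The part of those reads in the fall of Hnrnph3 was not tested.

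Hnrnpul2 (chromosome 19, 8797374 to 8811507), a U-like protein tied to DNA end resection, was at 241, 250, 237 and 248 CPM in control and 206, 213, 218 and 213 in EA (1.149-fold lower, adjusted p = 0.00176, edgeR). Its paralog Hnrnpul1 went from 179 ± 9.83 to 156 ± 5.23 CPM (1.148-fold lower, adjusted p = 0.00411, edgeR). In both, the groups were apart with TMM, and with library totals both fell by 0.56 on the log2 scale. Hnrnpm went from 358 ± 7.42 to 329 ± 5.92 CPM (1.09-fold lower, adjusted p = 0.0343, edgeR), and its call was lost without control library 1 (adjusted p = 0.0780), 2 (0.0670) or 3 (0.0501) or EA library 1 (0.0817), 2 (0.0884) or 3 (0.0837). It was also lost with no count filter (0.0593). With library totals its log2 fold change was −0.48 (adjusted p = 1.95e-08, edgeR). The Hnrnpm locus shares 1169 bases with Marchf2 on the same strand, and Marchf2 had 2572 reads in control and 1677 in EA. The part of shared reads in the Hnrnpm values was not tested. With TMM, EA lay below control without overlap for 4 of 20 hnRNP genes and 5 of 44 in all, beside 30.7% of all tested genes.

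Among the tissue-type regulators, Ptbp1 had a lower fold change than Ptbp2 and Ptbp3 with TMM. Mbnl1 had a lower one than Mbnl2, and Celf1 a lower one than Celf2. The other scaling factors move paralogs nearly alike, so they keep this order by construction. Ptbp1, the polypyrimidine tract binding protein of most cell types, was at 197, 205, 196 and 211 CPM in control and 223, 222, 223 and 238 in EA. These groups did not overlap with TMM (1.12-fold higher, log2 0.16 ± 0.05, adjusted p = 0.0103, edgeR), but with library totals the sign turned to −0.20 (adjusted p = 0.00174, edgeR). Ptbp1 overlaps Plppr3 on the other strand by 4297 bases, and Plppr3 had 454 reads in control and 424 in EA. The part of shared reads in the Ptbp1 values was not tested. Ptbp3 was at 51.1, 59.4, 56.0 and 76.2 CPM in control and 105, 112, 106 and 89.6 in EA. With TMM it rose 1.70-fold (log2 0.77 ± 0.11, adjusted p = 1.94e-05, edgeR). The call held under every scaling, but the log2 change was 0.40 with library totals and 0.38 on the log2(FPKM + 1) scale. Ptbp2, the neuronal paralog, was 1.48-fold higher with TMM, from 30.2 ± 6.27 to 44.9 ± 4.37 CPM, and was not past the threshold with library totals (log2 0.21, adjusted p = 0.146, edgeR).

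Ratios between paralogs in the same library need no scaling. Ptbp3 had 26.0, 28.9, 28.6 and 36.1 reads per 100 Ptbp1 reads in control and 47.1, 50.4, 47.7 and 37.7 in EA. The groups met closely at control library 4 and EA library 4. Ptbp2 had 14.9 ± 2.64 and 19.9 ± 2.49 reads per 100 Ptbp1 reads (SD, n = 4), and here the groups overlapped, since control library 4 was at 18.03 and EA library 4 at 16.3. Mbnl2 per 100 Mbnl1 reads went from 25.6 ± 0.868 to 36.1 ± 0.487, with wide separation.

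**Figure D3:**
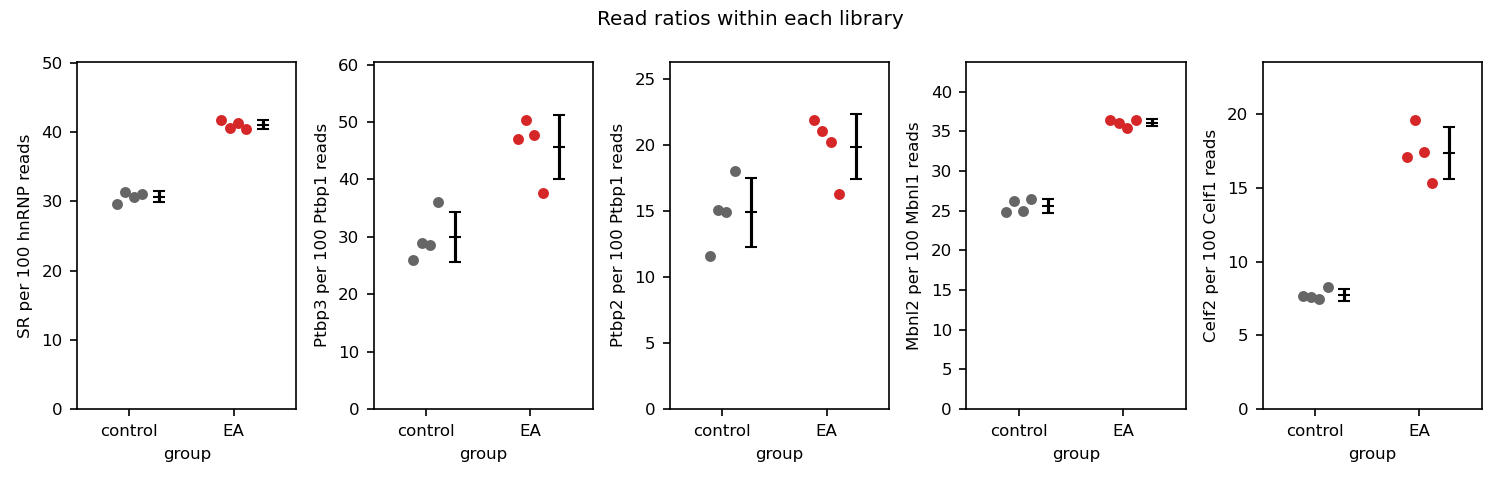
Read ratios in each library, which no scaling between libraries affects: summed SR reads per 100 summed hnRNP reads, and reads of Ptbp3, Ptbp2, Mbnl2 and Celf2 per 100 reads of the first paralog. Points are the 4 libraries of a group, and the bar beside them is the mean with 1 SD; all panels start at 0. The EA libraries lie above the control libraries except for Ptbp2, where control 4 (18.03) is above EA 4 (16.3).

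Mbnl1 and Mbnl2 encode muscleblind proteins, which set fetal or adult isoforms in many tissues. Mbnl1 was at 334, 362, 354 and 451 CPM in control and 360, 387, 391 and 352 in EA. Control library 4 was the highest of all 8, and the log2 fold change was −0.01 ± 0.08 (adjusted p = 0.916, edgeR), or 0.09 without that library (adjusted p = 0.105, edgeR) and −0.37 with library totals (adjusted p = 0.000289, edgeR). Mbnl2 was 1.39-fold higher with TMM (adjusted p = 0.000183, edgeR) and not past the threshold with library totals. Qk, the quaking protein, was 1.34-fold higher in the same way, from 155 ± 22.8 to 208 ± 4.79 CPM.

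Rbfox2, the only Rbfox gene with more than a few reads, had the highest FPKM of these regulators, at 53.4 ± 1.36 in control and 44.6 ± 1.31 in EA. Its CPM were 371, 391, 381 and 392 in control and 409, 395, 422 and 421 in EA. With TMM the groups narrowly did not overlap but the test was not passed (log2 0.10 ± 0.05, adjusted p = 0.0779, edgeR), whereas without control library 4 it was (adjusted p = 0.0337). With library totals the direction turned, to −0.26 (adjusted p = 8.14e-05, edgeR).

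The Celf family moved in both directions. Celf2, a regulator of splicing and mRNA stability, had the largest rise of all 44 genes, from a low level. It was at 9.52, 9.81, 9.10 and 12.5 CPM in control and 25.4, 28.05, 26.7 and 23.4 in EA. The groups were far apart, at 2.53-fold (log2 1.34 ± 0.11, adjusted p = 1.03e-09, edgeR) and still 0.97 on the log2 scale with library totals. Per length it remained low, at 0.447 ± 0.0650 FPKM in control and 0.881 ± 0.0691 in EA. Celf1, the widely expressed paralog, was 1.13-fold higher with TMM (adjusted p = 0.0182, edgeR) with overlapping groups, just missed the threshold without control library 3 (adjusted p = 0.0501), and was lower with library totals (−0.18, adjusted p = 0.0147, edgeR). For every 100 Celf1 reads there were 7.75 ± 0.385 Celf2 reads in control and 17.4 ± 1.76 in EA.

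Celf3, Celf4 and Celf5 are mostly known from the nervous system and were present at low levels. Celf5 was at 14.2, 13.9, 13.1 and 11.8 CPM in control and 21.7, 20.3, 21.8 and 20.0 in EA, a rise of 1.58-fold with TMM (log2 0.66 ± 0.10, adjusted p = 4.09e-06, edgeR). The call held under every scaling, with a log2 change of 0.30 with library totals and 0.21 on the log2(FPKM + 1) scale. Celf4 was at 7.80, 11.8, 7.01 and 10.3 CPM in control and 4.34, 5.52, 7.28 and 7.12 in EA. These groups overlapped, and Celf4 was 1.51-fold lower (log2 −0.60 ± 0.18, adjusted p = 0.00807, edgeR).

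Celf3 was at 5.33, 5.59, 6.22 and 5.70 CPM in control and 2.25, 5.15, 4.81 and 3.91 in EA, 1.40-fold lower (adjusted p = 0.0318, edgeR). EA library 1 decided much of that value: without it the log2 fold change was −0.30 (adjusted p = 0.126), and the call was also lost without control library 2 (adjusted p = 0.0525), control library 3 (0.0731) or EA library 4 (0.0651) and in DESeq2 (0.0555). Riiad1, which overlaps Celf3 by 2047 bases on the other strand, had 121 reads in control and 44 in EA. Of 6 neuronal markers 4 were tested. With TMM 3 were called higher and none lower, beside 33.1% and 34.2% of all tested genes. Map2 had 736 reads in control and 967 in EA, Syn1 607 and 711, Tubb3 1791 and 1877 and Syt1 499 and 386, while Snap25 had 0 and 1 and Stmn2 2 and 4. Their sum with library totals was 55.3 to 64.1 CPM in control and 59.4 to 65.3 in EA. The part of such cells or of the overlapping gene in the Celf values was not tested.

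SR proteins work only when phosphorylated to the right degree, by SRPK kinases that drive nuclear import with transportin 3 and by CLK kinases in the nucleus. Of 10 tested genes of SR kinases and import 5 rose and 3 fell with TMM (median 0.20), but with library totals none rose and 5 fell. All tested genes gave 33.1% higher and 34.2% lower with TMM, and 16.5% and 61.1% with library totals, and the lower counts of this list are near or under those shares. Clk1 and Clk3 rose 1.41-fold and 1.37-fold, from 85.5 ± 3.89 to 121 ± 12.2 and from 31.8 ± 0.830 to 43.6 ± 4.19 CPM, and Dyrk1a rose 1.28-fold; with library totals none of these passed and Dyrk1a was at −0.01. Tnpo3, the importer of SR proteins, dropped from a control mean of 151 ± 4.36 CPM to 112 ± 2.33, a level 1.35-fold lower (adjusted p = 5.97e-07, edgeR). Srpk1 was 1.32-fold lower, from 135 ± 6.05 to 103 ± 4.98 CPM, and Clk2 1.26-fold lower. Srpk3 was not tested.

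Proteins related to SR proteins or resident in nuclear speckles mostly rose with TMM. Of 21 tested genes 17 rose and 1 fell with TMM (median 0.40, which is 0.42 above that of all genes), and 8 rose and 7 fell with library totals (again 0.42 above). This stands beside 33.1% and 34.2% of all tested genes with TMM and 16.5% and 61.1% with library totals. Bclaf1 rose 2.05-fold, from 103 ± 13.2 to 210 ± 15.3 CPM. The U1 snRNP partners Luc7l3 and Luc7l2 rose 1.79-fold and 1.75-fold. Acin1 was 1.10-fold lower with overlapping groups, at 157 ± 7.50 and 143 ± 5.53 CPM (adjusted p = 0.0452, edgeR); this call was lost with RLE factors (0.0582), no count filter (0.0590), DESeq2 (0.0542), a replicate block (0.0564) and without control library 1 or 2 (0.0749 and 0.183) or EA library 1, 2 or 3 (0.0793, 0.107 and 0.139).

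The core spliceosome, the snRNP proteins and helicases that carry out the reaction, had a median close to that of all tested genes. Of 57 tested genes 17 rose, 4 fell and 36 did not pass with TMM (median 0.09), and 3 rose and 39 fell with library totals (median −0.27). The higher count with TMM and the lower count with library totals are near the shares of all tested genes, 33.1% and 61.1%. Fewer fell with TMM than their 34.2%, and fewer rose with library totals than their 16.5%. Dhx8, a helicase that releases spliced mRNA, rose 1.91-fold from 45.1 ± 1.13 to 86.1 ± 2.37 CPM. U2af1, which reads the 3′ splice site, rose 1.85-fold from 66.3 ± 3.01 to 122.5 ± 7.69 CPM, and Sf3b1, of the U2 snRNP, 1.55-fold. Snrpa1, whose groups overlapped, was 1.45-fold lower, Plrg1 1.27-fold and Lsm4 1.203-fold.

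Of 44 other tested splicing regulators 20 rose and 11 fell with TMM (median 0.16), and 7 rose and 23 fell with library totals. Of all tested genes 33.1% and 34.2% did so with TMM and 16.5% and 61.1% with library totals, so the higher count with library totals is at the background. The cold-inducible RNA-binding protein gene Cirbp rose 1.79-fold, the helicase gene Ddx5 1.74-fold, from 873 ± 34.7 to 1523 ± 22.3 CPM, and Syncrip, also called hnRNP Q, 1.62-fold. Tia1, which aids weak 5′ splice sites, was 1.68-fold lower, from 53.0 ± 8.89 to 31.5 ± 3.68 CPM. Rbm47 was 2.05-fold lower at only 1.05 ± 0.353 and 0.493 ± 0.378 CPM, with overlapping groups (adjusted p = 0.0494, edgeR), and lost the call with RLE factors (0.0509), no count filter (0.0543), DESeq2 (0.0960), a replicate block (0.0553) and without control library 1 or 2 (0.0704 and 0.173) or EA library 1, 2 or 3 (0.151, 0.103 and 0.103).

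Genes of the exon junction complex and nonsense-mediated decay, the route that removes poison-exon transcripts of SR genes, divided evenly. Of 15 tested genes 7 rose and 7 fell with TMM (median 0.11), and 2 rose and 9 fell with library totals. An even split is also what all tested genes gave with TMM (33.1% and 34.2%), and the counts with library totals are near their 16.5% and 61.1%. Rbm8a, an exon junction core protein, rose 1.94-fold from 34.8 ± 2.92 to 67.5 ± 8.18 CPM, the decay helicase gene Upf1 rose 1.48-fold, and Smg1 rose 1.21-fold with TMM, with overlapping groups, but stood at −0.09 with library totals. Upf3b was 1.88-fold lower, from 15.8 ± 2.22 to 8.42 ± 1.64 CPM, Smg9 1.49-fold and Magohb 1.38-fold.

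**Figure D4:**
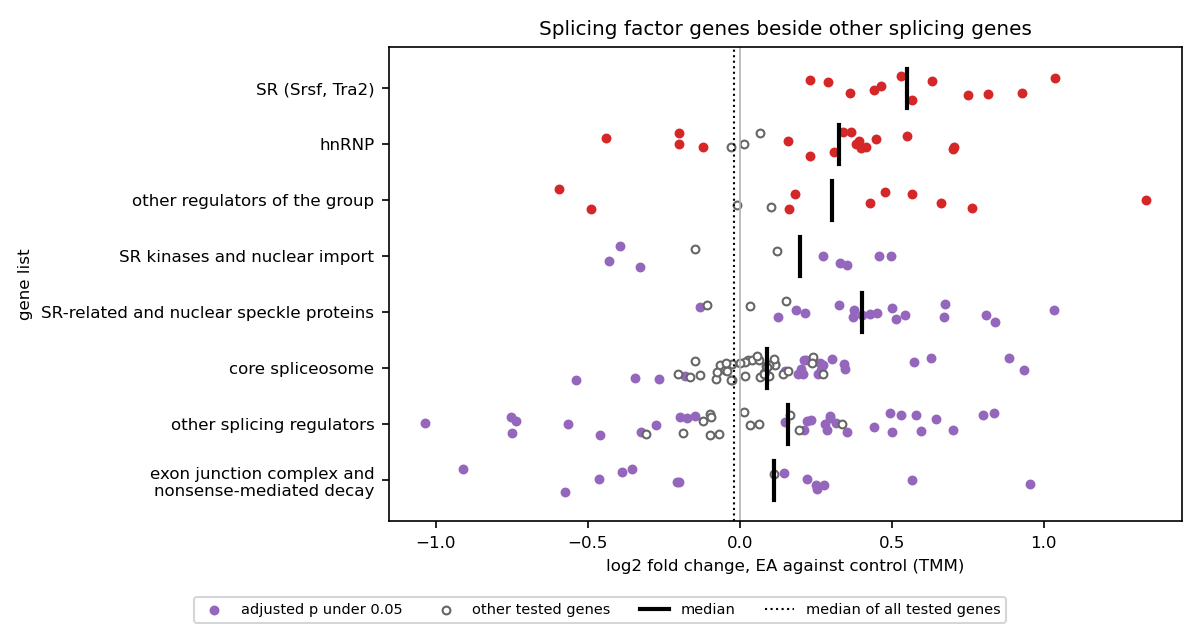
Log2 fold change with TMM scaling of each tested gene in the SR, hnRNP and other regulator classes (filled red where the adjusted p was under 0.05) and in 5 lists of other splicing genes (filled purple likewise). Open circles did not pass, thick bars are medians and the dotted line is the median of all tested genes. The medians of the SR genes (0.55) and the SR-related genes (0.40) lie farthest right, and that of the core spliceosome (0.09) is close to that of all genes; with library totals the median of all genes moves by −0.36.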

How the data were processed

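Reads of 8 poly(A) RNA libraries were trimmed with cutadapt 1.15 and aligned with HISAT2 2.0.5 to GRCm39, per the submitters' processing notes; for the counter, the strand setting and the annotation, the sources used here give nothing. The authors deposited raw read counts and FPKM per gene, and the deposited FPKM values equal count per length and column total. All columns of samples in the table were used.

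Counts were fitted for all genes in R 4.3.3 with edgeR 4.0.16 (TMM, default count filter by group, robust quasi-likelihood F test, Benjamini-Hochberg over 11777 genes). An adjusted p under 0.05 was called. The SE is the log2 fold change divided by the square root of F. CPM and fold changes use TMM unless stated; marker sums use library totals. Simulated counts for the EA against control comparison had 11800 genes passing the filter. From these the fit recovered 71 of 81 genes with a 1.5-fold change, 55 of 55 at 2-fold and 62 of 64 at 4-fold. The fit also called 9 unchanged genes. Only these few genes were changed in the simulation, whereas the fit to the deposited counts called 67.2%. The recovery therefore cannot show how far the reported calls depend on scaling. Alternatives were other scalings and filters, DESeq2 1.42.0, limma 3.58.1 on voom or log2 FPKM values, a replicate block and leaving out each library. Figures used matplotlib 3.10.9.

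The members and the 5 gene lists were chosen with earlier results of these data known. Each library's value is given for members called at 1.5-fold or more and for the 3 with the highest mean FPKM of each class, and for some others chosen after their values were seen. Of each list up to 3 called genes per direction with the largest change are named, except that some results are not reported here. Promoter windows are printed where the plan had protein sequences, which were not used here.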

Additional observations from a re-analysis of the deposited data

Results flagged for a closer look

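Each group's 4 libraries were searched for a highest or lowest value far from the others (Dixon's ratio) in all 44 tested genes, 88 sets in all, and 3 stood out, where chance gives about 1 in 20. Hnrnpa2b1 in EA library 2 was at 1003 CPM, the next EA library at 952 and the lowest at 942. Ptbp1 in EA library 4 was at 237.9 CPM and the other EA libraries at 222 to 223. Srsf7 in EA library 1 was at 217.7 CPM and the other EA libraries at 224 to 225. All 3 values lay above every control library, and the rise of each gene kept its direction and its call with that library left out.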

How the results depend on the processing

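RLE factors, voom, no count filter, CPM above 1 in all libraries, leaving out mitochondrial genes and DESeq2 left the counts of members higher (33 to 34) and lower (5 to 6) within 1 of the reported 33 and 6. At an adjusted p under 0.01 they were 29 and 4. Library totals gave 12 and 15 with a member median of 0.026, FPKM with a pseudocount of 1 gave 13 and 14 with 0.0305, FPKM with 0.1 gave 13 and 14 with 0.0311, and upper-quartile factors gave a member median of 0.23. Over all genes, 1940 were then higher and 7196 lower with library totals, 1920 and 7160 with FPKM and a pseudocount of 1, and 1923 and 7167 with 0.1. The cause of the gap between scalings was not tested. Leaving out each library gave 32 to 34 members higher and 4 to 6 lower, member medians of 0.36 to 0.44, and 3721 to 4012 genes higher and 3794 to 3957 lower in all.

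Direction turned with library totals, FPKM plus 1 and FPKM plus 0.1, in that order, for Hnrnpf (−0.30, −0.29, −0.30), Hnrnpl (−0.21, −0.20, −0.20), Hnrnpr (−0.35, −0.28, −0.34), Hnrnpu (−0.13, −0.13, −0.13), Hnrnph1 (−0.0534, −0.0516, −0.0523), Hnrnph2 (−0.022, −0.022, −0.022), Rbfox2 (−0.26, −0.26, −0.26), Ptbp1 (−0.20, −0.19, −0.20), Celf1 (−0.18, −0.17, −0.18), Srsf9 (−0.13, −0.13, −0.13), Srsf10 (−0.0716, −0.0624, −0.0650), Dyrk1a (−0.011, −0.012, −0.014) and Smg1 (−0.0857, −0.0700, −0.0743). Srsf1 turned only with library totals (−8.2e-05). With upper-quartile factors Hnrnpf was at −0.0906, Rbfox2 at −0.0549 and Hnrnpr at −0.14. Leaving out single libraries turned Mbnl1 (−0.0564 to 0.0940), Hnrnpa1 (−0.0467 to 0.0047) and Hnrnpr (−0.0012 to 0.0536), none of which was called.

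Libraries with the same number did not deviate together (correlations of −0.02 to 0.03 over genes, and none matched best with its own number), so the numbers were not taken as pairs. With a replicate block 33 members were higher and 6 lower, with a median of 0.39, 3834 of all genes higher and 3960 lower, and all 44 members kept their direction and call; Acin1 and Rbm47 lost theirs. Low depth limits Celf3, Celf4 and the 7 untested genes.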
